A study of Mus musculus with 24 samples.

Results

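The 6 genes described here handle thyroid hormone in the brain: the deiodinases Dio2 and Dio3, the transporter Slco1c1, the receptors Thra and Thrb, and Hr, the hairless corepressor that thyroid hormone induces. They were chosen by name for these roles, with earlier results of these data known. They are 6 of the 47643 gene symbols in the expression table. The animals were male C57BL/6J mice, 4 months old, either injected with LLC cells, a mouse lung carcinoma line, or mock-injected as controls. RNA came from 3 brain regions: neocortex, cerebellum and hippocampus. The LLC cells grew for up to about 3 weeks, and the protocol names a time point of 3 weeks for the sequenced samples. Each region had 4 LLC libraries, numbered 1 to 4, and 4 control libraries, numbered 14 to 17, which gave 24 libraries in 6 groups. The labels call the libraries biological replicates and do not say whether libraries with the same number in different regions came from the same mouse. The title of the series speaks of melanoma, while every tumour library here is labelled LLC. The comparison asks whether a tumour growing outside the brain goes along with changed transcript levels in each brain region.

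Thyroxine and triiodothyronine are the circulating forms of thyroid hormone. Thyroxine enters the brain through transporters, among them the organic anion carrier OATP1C1 encoded by Slco1c1 in endothelial cells and astrocytes of rodents. In astrocytes the type 2 deiodinase, encoded by Dio2, converts it to triiodothyronine, the form that binds the nuclear receptors. The type 3 deiodinase, encoded by Dio3 and found mostly in neurons, inactivates both hormones. The receptors encoded by Thra and Thrb bind DNA with or without hormone, recruiting corepressors in its absence and coactivators in its presence. Dio2 transcription is known to be raised by cyclic AMP, and in the rodent brain Dio2 messenger RNA is higher in hypothyroidism.

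Dio2 is on the minus strand of chromosome 12 at chr12:90724552-90738438 of mm10, and its promoter is shown because Dio2 was the member with the largest difference between LLC and control in the neocortex and in the mean of the 3 regions. The promoter of Slco1c1, on the plus strand at chr6:141524368-141570177, is shown beside it as that of a member whose level differed little. Each line holds the 250 bases before the RefSeq transcription start (GRCm38.p6), read along the gene's strand, at chr12:90739039-90739288 for Dio2 and chr6:141524104-141524353 for Slco1c1. Capitals mark the cAMP response element TGACGTCA and the TATA box TATAAA.
Dio2: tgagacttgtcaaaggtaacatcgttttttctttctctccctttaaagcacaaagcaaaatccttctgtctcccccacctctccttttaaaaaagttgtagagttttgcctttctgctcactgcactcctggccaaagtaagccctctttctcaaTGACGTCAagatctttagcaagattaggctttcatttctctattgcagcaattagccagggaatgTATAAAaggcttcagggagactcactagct
Slco1c1: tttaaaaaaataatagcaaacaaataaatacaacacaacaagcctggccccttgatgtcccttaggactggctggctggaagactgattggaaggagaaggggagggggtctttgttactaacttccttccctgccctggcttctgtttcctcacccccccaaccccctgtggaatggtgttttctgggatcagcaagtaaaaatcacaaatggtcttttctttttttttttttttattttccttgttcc
Both strands were searched for these motifs and for AGGTCA, the element that nuclear receptors of this family bind. In Dio2 the cAMP response element began 95 bases before the start and the TATA box 30 bases before it. Of 32851 RefSeq promoter windows of this length, 1.55% held TGACGTCA, 12.4% held TATAAA and 14.02% held AGGTCA on either strand. None of the 3 motifs was in the Slco1c1 window. In Dio3 a TATA box began 31 bases before the start. Thrb has a pair of listed starts, and AGGTCA began 184 bases before one of them and TATAAA 167 bases before the other. RefSeq starts differ from the ends of the gene spans given here. The Dio3 window lies partly and both Thrb windows lie wholly inside the span of their gene. The GC content of the windows was 41.6% for Dio2, 42.8% for Slco1c1, 69.6% for Dio3, and 71.6% and 44.0% for Thrb. A match of letters is a description of the sequence and was not linked to binding here.

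Levels are TPM values, a unit of relative abundance that divides by transcript length and by the library total, so levels of different genes can be compared. Every library summed to 1000000 TPM, the read depth is unknown, and 14368 to 14847 genes per library reached 1 TPM. Region labels matched their markers: Gabra6, a receptor subunit of cerebellar granule cells, was at 454.5 to 985.7 TPM in the cerebellum and at most 0.403 TPM elsewhere. Cerebellar LLC replicate 1 stood apart, with the lowest Gabra6. In every region the summed TPM of 7 red blood cell genes was higher in all LLC libraries than in all controls (1124 to 1507 TPM in control and 3565 to 15181 TPM in LLC neocortex). In LLC replicate 4 this sum was the lowest of the LLC libraries in each region. Limma was used for all tests, on log2(TPM + 1), two-sided, for those genes whose average reached 1 TPM, with Benjamini-Hochberg adjustment over all genes tested and a threshold of 0.05. Differences are LLC minus control on that scale, with the standard error after ±. Each p-value weighs a difference against the spread between these libraries.

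In the neocortex 2 of the 6 genes passed the test: Dio2 fell and Thra rose. For background, 8.54% of the genes tested in the neocortex passed. The members were chosen with earlier results known, so their counts beside such shares are a description. In the cerebellum 0 of 5 passed, against 2.5% of all genes, and in the hippocampus 0 of 6 passed, against 3.61%. At an unadjusted p under 0.05 there were 2 of the 5 in the cerebellum (24.4% of all genes) and 3 of the 6 in the hippocampus (22.2%). In the mean of the 3 regions, taken per replicate number, Dio2 and Thra again were the 2 that passed, against 13.1% of all genes. LLC and control libraries did not overlap for Dio2 and Thra in the neocortex, for Hr in the cerebellum and for Thra in the hippocampus. That is 2 of 6, 1 of 5 and 1 of 6 members tested, where 17%, 16.7% and 13.8% of all genes tested had groups that did not overlap. The cerebellar and hippocampal shares of members are thus near those of all genes.

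**Figure D1:**
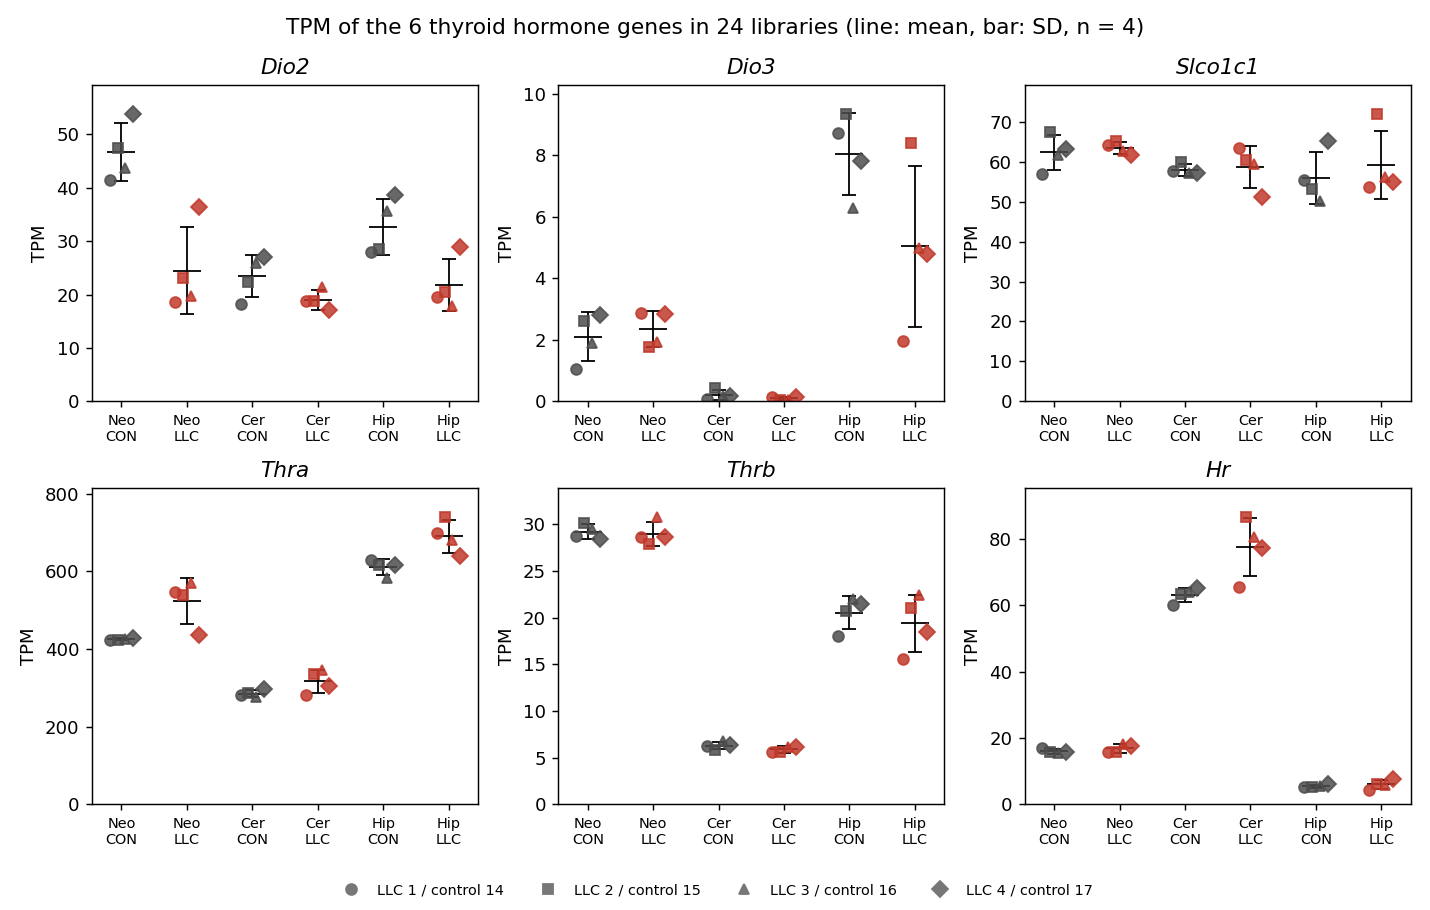
TPM of Dio2, Dio3, Slco1c1, Thra, Thrb and Hr on the vertical axes in the 6 groups, with 1 point per library, a line at the mean and a bar of 1 SD (n = 4). Dio2 was lower in all LLC neocortex libraries (18.7 to 36.4 TPM) than in all control neocortex libraries (41.5 to 53.9 TPM), while Slco1c1 lay between 50.1 and 72.1 TPM in every group.

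Dio2, the activating enzyme, was at 41.5, 47.5, 43.8 and 53.9 TPM in control neocortex replicates 14 to 17. It was at 18.7, 23.1, 19.7 and 36.4 TPM in LLC neocortex replicates 1 to 4. All LLC libraries were below all controls, and LLC replicate 4 was the nearest to them. Control replicate 17 was the highest control in the neocortex and in both other regions. The mean was 46.7 ± 5.42 TPM (SD, n = 4) in control and 24.5 ± 8.16 TPM (SD, n = 4) in LLC neocortex. The difference was -0.95 ± 0.18 on the log2(TPM + 1) scale (95% interval -1.34 to -0.56, limma adjusted p = 0.0176). With 1 library left out, the limma adjusted p was above the threshold without control replicate 15 (0.0583), 16 (0.0511) or 17 (0.0524) and without LLC replicate 1 (0.0597) or 2 (0.0596). It was 3.45e-05 without LLC replicate 4, and the difference stayed between -1.15 and -0.84 in all 8 such fits. In bulk tissue, fewer cells of a type and less RNA per cell cannot be told apart.

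In hippocampus Dio2 was at 27.9, 28.6, 35.6 and 38.6 TPM in control replicates 14 to 17 and at 19.6, 20.5, 17.9 and 28.9 TPM in LLC replicates 1 to 4. LLC replicate 4, again the highest of the LLC libraries, reached into the control range, and the other LLC libraries were below it. The difference of -0.58 ± 0.15 (95% interval -0.91 to -0.25) had a p of 0.00306 before adjustment and did not pass in limma (adjusted p = 0.0619). Without LLC replicate 4 it was -0.72, with a limma adjusted p of 0.00605. Of the 8 fits without 1 library, only that 1 passed, and the limma adjusted p reached 0.144 in the others. In cerebellum Dio2 was at 18.3, 22.3, 25.9 and 27.1 TPM in control replicates 14 to 17 and at 18.8, 18.7, 21.4 and 17.04 TPM in LLC replicates 1 to 4. The groups overlapped, and here LLC replicate 4 was the lowest. The difference was -0.28 ± 0.12 (95% interval -0.55 to -0.01, limma adjusted p = 0.196). In the mean of the 3 regions Dio2 fell by 0.60 ± 0.11 (95% interval -0.85 to -0.35, limma adjusted p = 0.0126). That call held in each of the 8 fits that left out 1 replicate number in all 3 regions, with limma adjusted p from 0.000824 to 0.0469.

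The neocortical and cerebellar differences of Dio2 were set against each other in 1 model of all 24 libraries. The cerebellar difference was less negative by 0.67 ± 0.24 (95% interval 0.17 to 1.17), which did not pass in limma (adjusted p = 0.231). Of all genes, 0.612% passed for this difference. Without LLC replicate 4 it was 0.92, with a limma adjusted p of 0.0124. Of the 8 fits without 1 replicate number, only that 1 passed, and the limma adjusted p reached 0.554 in the others. Between hippocampus and neocortex the LLC effect on Dio2 differed by 0.37 (limma adjusted p = 1), and limma called 0% of all genes, with 1.99% at an unadjusted p under 0.05. Between hippocampus and cerebellum it differed by -0.30 (limma adjusted p = 0.635), where 0.128% of all genes passed. A difference between regions in the response of Dio2 was thus not resolved with all libraries included.

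Marker genes of astrocytes, the cells in which Dio2 is known to be made, differed in both directions. Of 12 astrocyte markers in the neocortex, 3 passed the limma test upward and 1 downward, where 8.54% of all genes passed. The 3 that rose were Gjb6 (0.71 ± 0.14), Glul (0.25 ± 0.07) and Slc1a3 (0.24 ± 0.06; limma adjusted p = 0.0189, 0.0467 and 0.0402). Aqp4, the water channel of astrocyte endfeet, fell from a mean of 79.6 to 51.7 TPM in neocortex (-0.65 ± 0.15, limma adjusted p = 0.0344) and from 277.9 to 155.3 TPM in cerebellum (-0.87 ± 0.16, limma adjusted p = 0.0344). The median difference over the 12 markers was -0.05 in neocortex, -0.15 in cerebellum and -0.08 in hippocampus, against 0.01, -0.04 and 0.01 for all genes tested. Their summed TPM in the neocortex, of which Glul alone made up a mean of 1488 in control and 1767 in LLC libraries, was 3271 to 3576 in control and 3557 to 3921 in LLC libraries. In the hippocampus the sum was 3021 to 3411 TPM in control and 3215 to 3496 TPM in LLC libraries. There 1 marker was up and 0 down, where 3.61% of all genes passed. In the cerebellum it was 3419 to 3586 and 3464 to 3677 TPM, with 0 up and 1 down, where 2.5% of all genes passed. No marker on the list was at 0 in all libraries of a group. Endothelial markers were higher in the same libraries: 12 of 14 rose in the neocortex, 2 in the cerebellum and 9 in the hippocampus, and 0 fell. Of all genes, 8.54%, 2.5% and 3.61% passed in these regions. Their summed TPM in the neocortex was 348 to 381 in control and 709, 681, 642 and 471 in LLC replicates 1 to 4. The red blood cell sum in the same 4 libraries was 11771, 14821, 15181 and 3565 TPM. Replicate 4, with the highest Dio2 of the LLC neocortex libraries, thus had the lowest of both sums. In the hippocampus replicate 4 also had the lowest LLC sums (393 TPM endothelial, 2622 TPM red blood cell) and the highest LLC Dio2. In the cerebellum replicate 4 had the lowest LLC sums too (454 TPM endothelial, 4250 TPM red blood cell). Its Dio2 was the lowest, however, so the order there was the opposite. The part of these cells in the Dio2 result was not tested.

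**Figure D2:**
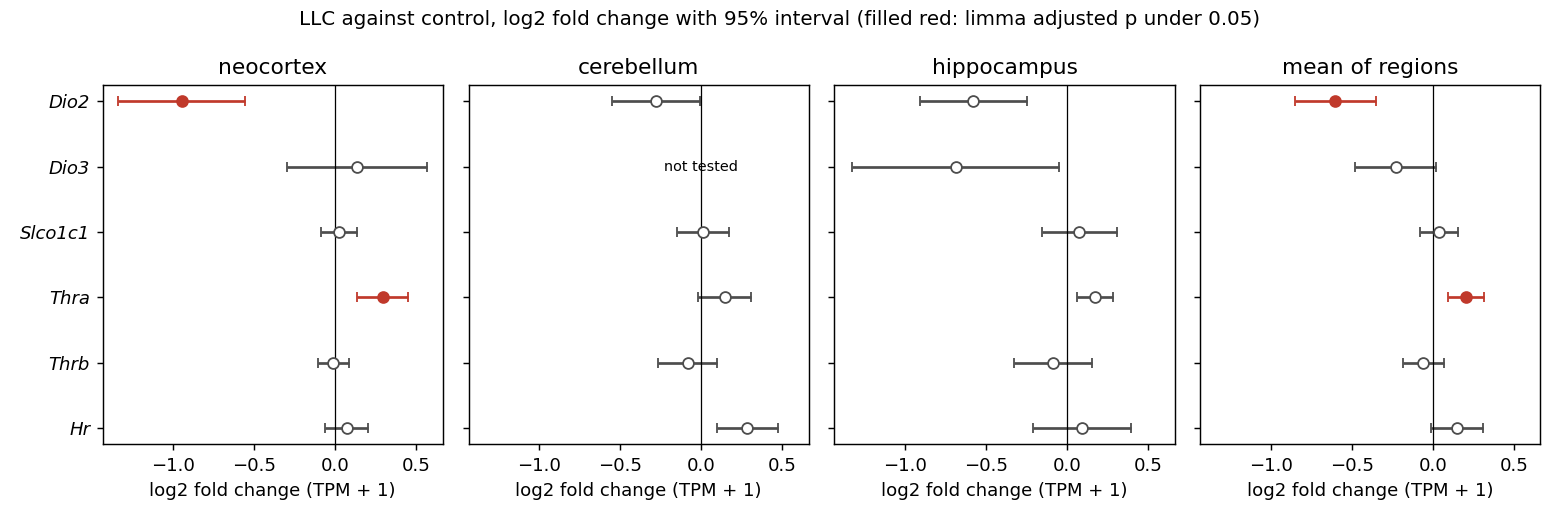
Difference between LLC and control on the log2(TPM + 1) scale (horizontal axis) for each of the 6 genes, with 95% intervals, in neocortex, cerebellum, hippocampus and the mean of the 3 regions. Filled red points passed the limma test: Dio2 (-0.95) and Thra (0.29) in the neocortex, and Dio2 (-0.60) and Thra (0.20) in the mean of regions.

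Dio3, the inactivating enzyme, on the plus strand at chr12:110279068-110281097, was below Dio2 in every group. In neocortex it was at 1.06, 2.63, 1.90 and 2.80 TPM in control replicates 14 to 17 and at 2.86, 1.77, 1.93 and 2.83 TPM in LLC replicates 1 to 4. The groups overlapped almost wholly, and the difference was 0.14 (95% interval -0.30 to 0.57, limma adjusted p = 0.677). In hippocampus it was at 8.73, 9.36, 6.28 and 7.83 TPM in control and at 1.98, 8.41, 4.98 and 4.78 TPM in LLC libraries, in the same order of replicates. LLC replicates 1, 3 and 4 were below all controls, and LLC replicate 2 was within their range. The hippocampal difference was -0.69 ± 0.29 (95% interval -1.32 to -0.05) and did not pass in limma (adjusted p = 0.196). In the cerebellum Dio3 lay below the minimum for testing, at 0.0766 to 0.437 TPM in control and 0.0381 to 0.155 TPM in LLC libraries. The mean of the 3 regions differed by -0.23 (95% interval -0.48 to 0.02, limma adjusted p = 0.186). That mean includes the cerebellar values below the minimum, so it carries little weight.

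The ratio of Dio2 to Dio3 TPM sets the transcript of the activating enzyme beside that of the inactivating one. It is given as a description and does not measure enzyme activity. Neocortical Dio3 was at 1.06 to 2.86 TPM, near the minimum of 1 TPM, so the ratio is unsteady there. The highest control ratio, 39.3, was that of replicate 14, with Dio3 at 1.06 TPM. In the neocortex its median was 21.2 in control libraries (18.1 to 39.3) and 11.5 in LLC libraries (6.53 to 13.04). These ranges did not overlap, and the lower ratio goes with the lower Dio2. In the hippocampus the median was 4.06 in control (3.05 to 5.66) and 4.81 in LLC libraries (2.44 to 9.93). There the ranges overlapped, and both transcripts had lower means in LLC than in control libraries. The ratio was not formed in the cerebellum because Dio3 was under 1 TPM there.

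Slco1c1, the thyroxine transporter, was nearly level across groups. In neocortex it was at 56.9, 67.6, 61.7 and 63.3 TPM in control replicates 14 to 17 and at 64.1, 65.2, 62.8 and 61.6 TPM in LLC replicates 1 to 4. In cerebellum it was at 57.6, 60.0, 57.2 and 57.1 TPM in control and at 63.5, 60.4, 59.5 and 51.3 TPM in LLC libraries. In hippocampus it was at 55.4, 53.3, 50.1 and 65.3 TPM in control and at 53.6, 72.1, 56.2 and 55.0 TPM in LLC libraries. LLC and control libraries overlapped in all 3 regions. The difference was 0.03 in neocortex (95% interval -0.09 to 0.14, limma adjusted p = 0.763) and 0.01 in cerebellum (95% interval -0.15 to 0.17, limma adjusted p = 0.928). In hippocampus it was 0.08 (95% interval -0.16 to 0.31, limma adjusted p = 0.719), and over the 3 regions 0.04 (95% interval -0.08 to 0.16, limma adjusted p = 0.642). These intervals bound the difference and do not show that it is 0.

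The hippocampal libraries with the highest Slco1c1 of their group, LLC replicate 2 and control replicate 17, also had the highest Ttr, which encodes the thyroxine carrier transthyretin and marks choroid plexus. Ttr was at 7290 TPM in that LLC library and at 42.8, 39.3 and 103 TPM in the other LLC libraries. It was at 3968 TPM in that control library and at 2506, 86.2 and 38.4 TPM in the other controls. The summed TPM of all 10 choroid plexus markers ranged from 57.8 to 4132 in control and from 58.9 to 7507 in LLC hippocampus. In limma 0 of the 10 passed in that region, against 3.61% of all genes. In the neocortex the sum was 285 to 1858 TPM in control and 659 to 2329 TPM in LLC libraries. In the cerebellum it was 4445 to 5342 and 4308 to 8209 TPM. The part of choroid plexus tissue in the Slco1c1 values was not tested. The endothelial markers given above rose in regions where Slco1c1, itself known from endothelial cells, was not called.

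Thra, on the plus strand at chr11:98740638-98769006, was the member with the highest level in every group. In neocortex it was at 422.7, 423.5, 424.8 and 429.1 TPM in control replicates 14 to 17, the narrowest range of the 6 groups for Thra. It was at 547.6, 539.6, 570.3 and 436.6 TPM in LLC replicates 1 to 4. All LLC libraries were above all controls, and replicate 4 was by far the nearest to them. The mean rose from 425.0 ± 2.88 to 523.5 ± 59.4 TPM (SD, n = 4 each), a difference of 0.29 ± 0.07 (95% interval 0.13 to 0.45, limma adjusted p = 0.038). The call was lost with no filter on low genes (limma adjusted p = 0.0751). It was also lost in 7 of the 8 fits without 1 library, where the limma adjusted p was 0.0794, 0.103, 0.0933 and 0.0807 without control replicates 14 to 17 and 0.115, 0.101 and 0.087 without LLC replicates 1 to 3. Without LLC replicate 4 it was 3.99e-05, with a difference of 0.38.

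In hippocampus Thra was at 629.2, 616.8, 582.7 and 615.5 TPM in control replicates 14 to 17 and at 700.0, 740.9, 680.1 and 638.4 TPM in LLC replicates 1 to 4. The groups did not overlap, and LLC replicate 4 was again the lowest of its group. The difference was 0.17 ± 0.05 (95% interval 0.06 to 0.29) and did not pass in limma (adjusted p = 0.0844). Without LLC replicate 4 it was 0.21, with a limma adjusted p of 0.0199. Of the 8 fits without 1 library, only that 1 passed, and the limma adjusted p reached 0.178 in the others. In cerebellum Thra was at 280.7, 285.6, 277.4 and 297.1 TPM in control and at 280.8, 335.4, 347.1 and 304.0 TPM in LLC libraries. LLC replicate 1 lay within the control range, and the other LLC libraries lay above it. The difference was 0.15 ± 0.07 (95% interval -0.02 to 0.31, limma adjusted p = 0.245), and without LLC replicate 1 it was 0.20, with a limma adjusted p of 0.0486. Again only that 1 of the 8 fits without 1 library passed, and the limma adjusted p reached 0.449 in the others.

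Over the 3 regions Thra rose by 0.20 ± 0.05 (95% interval 0.10 to 0.31, limma adjusted p = 0.0267). The limma adjusted p was 0.0578 with no filter on low genes. With a replicate number left out in all 3 regions, it was 0.0558, 0.08, 0.084 and 0.0576 without control replicates 14 to 17 and 0.0713 and 0.0648 without LLC replicates 2 and 3. The last 1075 bases of Thra overlap Nr1d1 on the other strand, which encodes the circadian repressor REV-ERBα, at chr11:98767932-98775333. Whether counting used strand is not given in the sources used here. Nr1d1 itself differed by -0.13 in neocortex, -0.06 in cerebellum and -0.10 in hippocampus, none of which passed in limma (adjusted p = 0.315, 0.787 and 0.601). Thra also makes a hormone-binding receptor and a splice form that does not bind hormone, and a value per gene does not separate them.

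Thrb, on the plus strand at chr14:17660261-18038090, encodes the other receptor and did not pass in any region. In neocortex it was at 28.8, 30.2, 29.5 and 28.4 TPM in control replicates 14 to 17 and at 28.7, 27.9, 30.8 and 28.7 TPM in LLC replicates 1 to 4. In hippocampus it was at 18.0, 20.7, 22.01 and 21.5 TPM in control and at 15.6, 21.1, 22.5 and 18.5 TPM in LLC libraries. In cerebellum it was at 6.23, 5.79, 6.74 and 6.36 TPM in control and at 5.61, 5.58, 6.13 and 6.19 TPM in LLC libraries. The groups overlapped in all 3 regions. The difference was -0.01 in neocortex (95% interval -0.11 to 0.08, limma adjusted p = 0.884) and -0.08 in cerebellum (95% interval -0.26 to 0.10, limma adjusted p = 0.555). In hippocampus it was -0.09 (95% interval -0.33 to 0.15, limma adjusted p = 0.683).

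The ratio of Thra to Thrb TPM, given as a description, was 14.6 ± 0.453 in control and 18.1 ± 1.91 in LLC neocortex (SD, n = 4 each). It was 30.0 ± 3.59 in control and 36.2 ± 6.21 in LLC hippocampus. It was 45.6 ± 3.42 in control and 54.0 ± 5.29 in LLC cerebellum. The receptor mix therefore differed more between regions than between LLC and control within a region.

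Hr, on the plus strand at chr14:70552212-70573548, is a direct target of thyroid hormone in the rodent brain. In cerebellum, where it was highest, it was at 60.1, 63.3, 63.9 and 65.3 TPM in control replicates 14 to 17 and at 65.7, 86.7, 80.5 and 77.4 TPM in LLC replicates 1 to 4. The groups did not overlap, although LLC replicate 1 lay just above the highest control. The difference was 0.29 ± 0.08 (95% interval 0.10 to 0.47) and did not pass in limma (adjusted p = 0.0875). It passed after median-ratio scaling (0.33, limma adjusted p = 0.0345) and without LLC replicate 1 (0.36, limma adjusted p = 0.00939). That replicate had the lowest Gabra6 of the cerebellar libraries. No other of the 8 fits without 1 library passed, and the limma adjusted p reached 0.232 in them. The part of tissue content in the cerebellar Hr values was not tested.

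In neocortex Hr was at 17.04, 15.7, 15.5 and 15.6 TPM in control and at 15.8, 15.8, 18.3 and 17.6 TPM in LLC libraries. The groups overlapped, and the difference was 0.07 (95% interval -0.06 to 0.20, limma adjusted p = 0.449). In hippocampus Hr was at 5.13, 5.09, 5.57 and 6.03 TPM in control and at 4.30, 6.01, 5.94 and 7.66 TPM in LLC libraries. The LLC libraries spread to both sides of the controls, and the difference was 0.09 (95% interval -0.21 to 0.39, limma adjusted p = 0.734). Over the 3 regions it was 0.15 (95% interval -0.01 to 0.31, limma adjusted p = 0.174), and without LLC replicate 1 it was 0.23, with a limma adjusted p of 0.0222. No other of the 8 fits without 1 replicate number passed, and the limma adjusted p reached 0.322 in them.

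**Figure D3:**
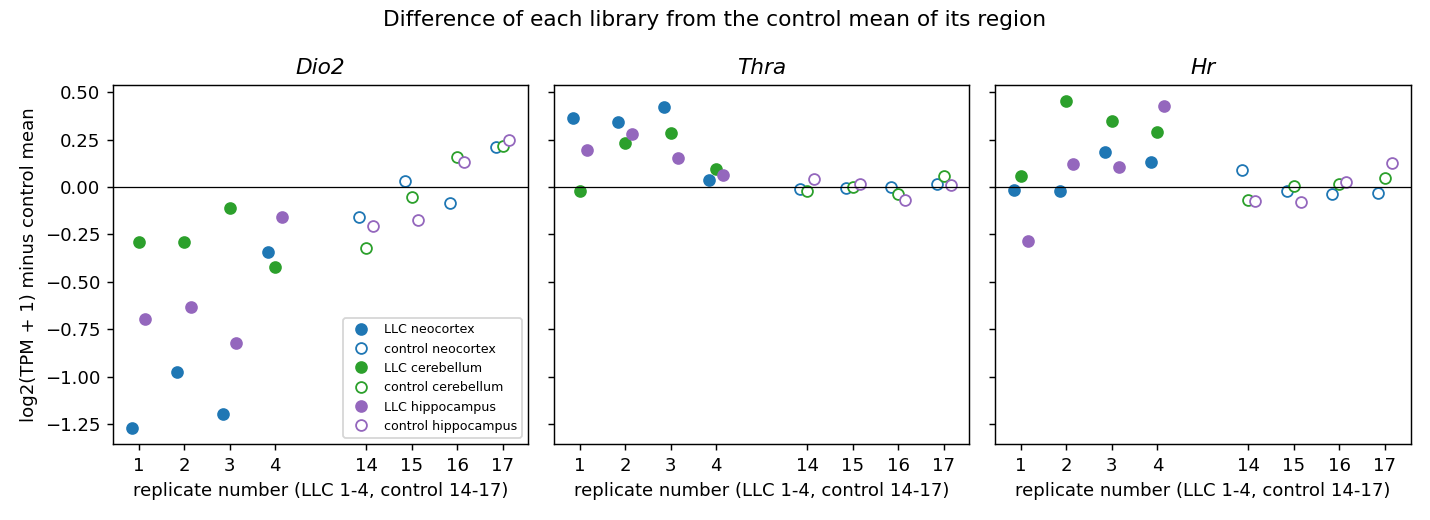
Difference of each library from the mean of the control libraries of its region on the log2(TPM + 1) scale (vertical axis) by replicate number (horizontal axis) for Dio2, Thra and Hr, with filled points for LLC and open points for control libraries, coloured by region. LLC replicate 4 had the Dio2 value nearest to control in neocortex (36.4 TPM) and the Thra value nearest to control there (436.6 TPM), and LLC replicate 1 the Hr value nearest to control in cerebellum (65.7 TPM).

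The order of the 6 groups was set by region for 4 of the members. Hr was highest in the cerebellum (LLC 77.6 ± 8.84, control 63.2 ± 2.18 TPM), then in neocortex (16.9 ± 1.29 and 15.99 ± 0.708 TPM) and lowest in hippocampus (5.98 ± 1.37 and 5.46 ± 0.439 TPM; SD, n = 4). Thra ran from LLC and control hippocampus (689.9 ± 42.6 and 611 ± 19.9 TPM) through LLC and control neocortex to LLC and control cerebellum (316.8 ± 30.1 and 285.2 ± 8.60 TPM). Among the neighbours in the Thra order, LLC and control cerebellum were the pair whose libraries overlapped. Thrb ran from neocortex (control 29.2 ± 0.784, LLC 29.0 ± 1.28 TPM) through hippocampus (20.6 ± 1.78 and 19.4 ± 3.04 TPM) to cerebellum (6.28 ± 0.393 and 5.88 ± 0.329 TPM), with overlap only within regions. Dio3 ran from hippocampus (control 8.05 ± 1.33, LLC 5.04 ± 2.64 TPM) through neocortex (LLC 2.35 ± 0.578, control 2.10 ± 0.796 TPM) to cerebellum (0.208 ± 0.157 and 0.0910 ± 0.0613 TPM). Its LLC hippocampus and LLC neocortex libraries overlapped.

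Dio2 did not follow that pattern: control neocortex (46.7 ± 5.42 TPM) stood above all other groups, with no overlap with control hippocampus (32.7 ± 5.27 TPM) as the next. The remaining neighbours all overlapped, from LLC neocortex (24.5 ± 8.16) through control cerebellum (23.4 ± 3.96) and LLC hippocampus (21.7 ± 4.89) to LLC cerebellum (19.0 ± 1.79 TPM). Slco1c1 had no neighbours that were apart, from 63.4 ± 1.54 TPM in LLC neocortex to 56.0 ± 6.54 TPM in control hippocampus.

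Between control regions, 5 of the 6 genes were called in each of the 3 pairs, but in the cerebellar pairs that count includes Dio3. With Dio3 set aside, Hr, Thrb, Thra and Dio2 were called in the cerebellar pairs. Of all genes 84.6% passed for cerebellum against neocortex, 61.5% for hippocampus against neocortex and 83% for hippocampus against cerebellum. Cerebellum minus neocortex was 1.92 ± 0.05 for Hr (limma adjusted p = 2.94e-13), -2.05 ± 0.06 for Thrb (6.03e-13) and -0.57 ± 0.03 for Thra (2.53e-10). It was -0.97 ± 0.13 for Dio2 (limma adjusted p = 5.27e-06). Dio3 entered the cerebellar pairs only through its level in the other regions, since it reached no more than 0.437 TPM in control cerebellum, so its calls there carry no weight and only its levels are reported. Hippocampus minus neocortex was 1.58 ± 0.18 for Dio3 (limma adjusted p = 3.4e-06), 0.52 ± 0.03 for Thra (5.4e-09), -0.51 ± 0.13 for Dio2 (0.00321), -0.49 ± 0.06 for Thrb (1.06e-05) and -1.40 ± 0.05 for Hr (1.06e-10). Hippocampus minus cerebellum was -3.31 ± 0.05 for Hr (limma adjusted p = 9.18e-16), 1.56 ± 0.06 for Thrb (1.21e-11), 1.097 ± 0.03 for Thra (2.19e-13) and 0.47 ± 0.13 for Dio2 (0.00363). The pairs share control libraries.

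Slco1c1 was the member that did not pass between control regions: -0.10 for cerebellum minus neocortex, -0.16 for hippocampus minus neocortex (95% interval -0.31 to -0.01) and -0.06 for hippocampus minus cerebellum, with limma adjusted p of 0.185, 0.0641 and 0.468. Its call depended on the scaling. The median of all genes was 0.30 higher in cerebellum than in neocortex and 0.23 lower in hippocampus than in cerebellum on this scale, and 0.08 higher in hippocampus than in neocortex. After median-ratio scaling the same 3 differences of Slco1c1 were -0.42, -0.25 and 0.17, all past the threshold in limma (adjusted p = 7.12e-05, 0.00704 and 0.0374), and the last had changed sign. Without control replicate 17 hippocampus minus neocortex was -0.22 (limma adjusted p = 0.0112). Of the 4 fits without 1 control replicate, only that 1 passed, and the limma adjusted p reached 0.346 in the others. Dio2, Thra, Thrb and Hr kept direction and call under that scaling in all 3 pairs, as did Dio3 between hippocampus and neocortex.

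The gene lists that follow were also chosen with earlier results of these data known, so their counts are a description. Of 15 other transporters that carry thyroid hormone, 11 were tested in each region. In the neocortex 2 rose and 0 fell (8.54% of all genes passed), in the hippocampus 2 rose and 0 fell (3.61%), and in the cerebellum 0 passed (2.5%). The median difference of the list was 0.09, 0.15 and -0.04 in neocortex, hippocampus and cerebellum, against 0.01, 0.01 and -0.04 for all genes tested. Slco2b1, an organic anion carrier, rose from 9.89 ± 0.550 to 13.3 ± 0.383 TPM in neocortex (SD, n = 4 each; 0.40 ± 0.05, limma adjusted p = 0.00459). It rose from 9.31 ± 0.283 to 12.1 ± 1.06 TPM in hippocampus (0.34 ± 0.07, limma adjusted p = 0.0355). Abcc4, an efflux pump of conjugated anions, rose by 0.48 ± 0.10 in neocortex and 0.42 ± 0.09 in hippocampus (limma adjusted p = 0.021 and 0.0349). Over the 3 regions Slco4a1 was called as well (0.25 ± 0.06, limma adjusted p = 0.0329). Endothelial markers rose in both regions where Slco2b1 and Abcc4 rose, 12 of 14 in neocortex and 9 of 14 in hippocampus. The part of endothelial cells in the transporter results was not tested.

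Of 17 genes of hormone binding, conjugation and deiodinase turnover in the table, 12 were tested in neocortex, 14 in hippocampus and 10 in cerebellum, and 2, 2 and 0 of them rose, with 0 falling, where 8.54%, 3.61% and 2.5% of all genes passed. Sult1a1, a sulfotransferase of phenols and iodothyronines, was at 48.5, 41.4, 35.6 and 17.6 TPM in LLC neocortex replicates 1 to 4 and at 8.75 to 14.9 TPM in controls. It rose by 1.48 ± 0.27 there and by 1.35 ± 0.29 in hippocampus (limma adjusted p = 0.016 and 0.036). Ugt1a6a, a glucuronosyltransferase, was at 8.36, 7.72, 8.70 and 2.57 TPM in LLC neocortex replicates 1 to 4 and at 1.72 to 2.21 TPM in controls. It rose by 1.27 ± 0.27 in neocortex and 1.05 ± 0.23 in hippocampus (limma adjusted p = 0.0254 and 0.0401). Genes of its locus share exons, so the split of its counts is uncertain. For both genes LLC replicate 4 of the neocortex was the nearest to control. That library also had the lowest endothelial sum of the LLC neocortex libraries (471 TPM). The part of endothelial cells in the Sult1a1 and Ugt1a6a results was not tested. Dio1, the remaining deiodinase, was listed at 0 in all neocortical libraries and at no more than 0.298 TPM elsewhere.

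Of 20 receptor partners and cofactors, 20, 19 and 20 were tested in neocortex, cerebellum and hippocampus, and 2, 0 and 2 rose, with 0 falling. Against 8.54%, 2.5% and 3.61% of all genes called in these regions, the neocortical count is near the background. Rxra, the retinoid X receptor that pairs with thyroid hormone receptors, rose in neocortex from 20.0 ± 0.557 to 25.9 ± 3.09 TPM (0.35 ± 0.08, limma adjusted p = 0.0267). The coactivator Ncoa1 rose in neocortex (0.20 ± 0.05, limma adjusted p = 0.0456) and hippocampus (0.21 ± 0.04, limma adjusted p = 0.0311). Gps2, a subunit of the corepressor complex of NCoR, rose in hippocampus (0.19 ± 0.04, limma adjusted p = 0.0424) and over the 3 regions. The calls of list genes often did not hold: with 1 of the 8 replicates left out, 1 of the 10 called in the neocortex, 0 of 9 in the hippocampus and 0 of 2 in the cerebellum kept the call in every such fit. In the mean of regions 3 of 12 did, and the neocortical one was Slco2b1 (highest limma adjusted p = 0.0261).

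Genes that respond to thyroid hormone in rodent brain moved in both directions. The list was not split by whether the hormone raises or lowers each gene, so these directions do not measure hormone action. Of 30 such genes 27 were tested in neocortex, where 1 rose and 3 fell; 29 in cerebellum, where 1 rose and 1 fell; and 26 in hippocampus, where 2 rose and 1 fell. Of all genes 8.54%, 2.5% and 3.61% passed in these regions. The list's median was -0.09, -0.13 and -0.04, against 0.01, -0.04 and 0.01 for all genes tested. In neocortex those that fell included the myelin gene Mag (-0.38 ± 0.07) and the circadian factor Dbp (-0.40 ± 0.08), and Ttyh1, a membrane protein of the tweety family, rose (0.25 ± 0.05; limma adjusted p = 0.0183, 0.0221 and 0.0151). Mag is also an oligodendrocyte marker, of which 4 of 10 fell and 0 rose in the neocortex. There the summed TPM of the 10 was 2664 to 2871 in control and 2363 to 2575 in LLC libraries. The list was mixed: Mobp (mean 364.9 TPM in control, 415.6 in LLC) and Cldn11 (170.5 and 196.2 TPM) were higher in LLC neocortex. The other markers of the list had lower means there. The part of these cells was not tested.

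In cerebellum Ttyh1 rose (0.43 ± 0.09) and Dbp fell by 0.67 ± 0.12 (limma adjusted p = 0.0462 and 0.0311). In hippocampus Thrsp, a lipogenic protein named for its response to the hormone, rose from 63.5 ± 4.01 to 96.2 ± 18.4 TPM (0.57 ± 0.11, limma adjusted p = 0.0298). Flywch2 rose by 0.42 ± 0.09 and the synaptic scaffold gene Homer1 fell by 0.31 ± 0.06 (limma adjusted p = 0.0371 and 0.0305). Klf9, a widely used target gene of the hormone, was named after its values were seen and did not pass: 0.19 in neocortex, -0.04 in cerebellum and 0.19 in hippocampus (limma adjusted p = 0.264, 0.905 and 0.196).

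**Figure D4:**
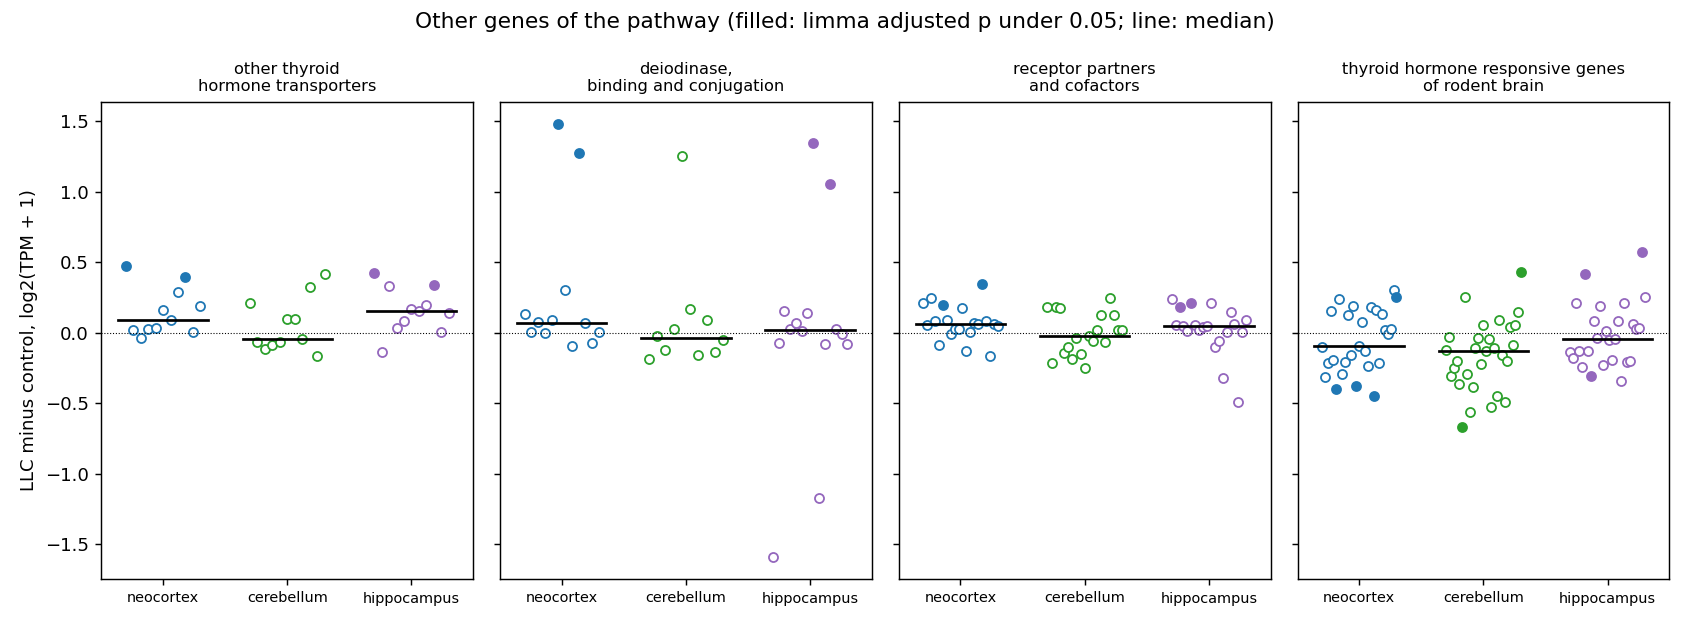
Difference between LLC and control on the log2(TPM + 1) scale (vertical axis) for the tested genes of the 4 pathway lists (1 panel each) in the 3 regions (horizontal axis), with 1 point per gene, filled where the gene passed the limma test, and a line at the median. The transporter, conjugation and cofactor lists had called genes above 0 in neocortex and hippocampus and none in cerebellum, while the responsive genes had calls on both sides of 0.

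The genes whose log2(TPM + 1) followed each member most closely over the 24 libraries were named by Pearson's r, as a description, since these libraries share regions and treatment. For Dio2 they included Lag3 (r = 0.870) and Tuba1a (0.846), a lower likeness than for the members with strong regional levels. Thrb went with Fam81a (r = 0.996), Lrrc4c and Tbr1, Hr with Nfic (r = 0.992), Jup and Tmem132c, and Thra with Rapgef2 (r = 0.983), Acot4 and Src. Dio3 went with Cadm1 (r = 0.958), Grp and Pde11a, and Slco1c1 with Sult1c2 (r = 0.779), Scube3 and Il10rb. With the mean of each region taken off, the closest genes to Dio2 were Hsd17b12 (r = 0.868), Hnrnpa1 (0.860) and Atf4 (0.855), and those to Thra were Spg7 (r = 0.946), Hira and Inpp5k. Those to Slco1c1 were Lmx1a (r = 0.850), Perp and Cdkn1c. Those to Dio3 were led by Dcn (r = 0.859), those to Thrb by Racgap1 (r = 0.858) and those to Hr by Abca7 (r = 0.811).

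Dio2 overlaps another annotated gene at its 5′ end: 238 bases are shared with Gm26512 on the plus strand (chr12:90738201-90869235). That count uses the annotated span of Dio2. The RefSeq start used for the printed promoter lies upstream of that span, and the printed window lies within Gm26512. Gm26512 had means of 2.04 ± 0.209 TPM in control and 1.64 ± 0.293 TPM in LLC neocortex (-0.21, limma adjusted p = 0.191) and did not pass in cerebellum or hippocampus (limma adjusted p = 0.799 and 0.254). Its level was far below that of Dio2 in the same libraries. Within the span of Thrb lies Gm24140, listed at 0 in all libraries, and Gm48320 and Gm48321, which were not analysed here.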

How the data were processed

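RNA from 3 brain regions was extracted with Trizol and sequenced on a NovaSeq instrument after a stranded TruSeq preparation of messenger RNA, as the labels' protocols state. For all 24 libraries together the authors deposited TPM values, in 1 file of 47643 symbols. According to the submitters' processing notes the build was mm10. Which aligner, counter and annotation they used is not given in the sources used here. Since TPM fixes the library total, 1 abundant transcript can depress the rest, and the depth is unknown.

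Groups came from the titles. The members and gene lists were chosen with earlier results of these data known. Named list genes were at most 4 per list and comparison among those that passed, by p; the cases named after their values were seen are marked, and a few genes that the rule names are not reported here. Tests used limma 3.58.1 (lmFit, eBayes with trend) in R 4.3.3 on log2(TPM + 1), which understates changes of low genes, within each region's 8 libraries, over genes with a mean of at least 1 TPM. The mean of regions was formed per replicate number. Differences between regions came from 1 fit of all 24 libraries, and control regions from 1 fit of their libraries. The adjusted p threshold was 0.05. The code was tested on simulated data. Alternatives were a pseudocount of 0.1, no filter, median-ratio scaling, a replicate block, all libraries in 1 fit, and each replicate left out. Coordinates are from GENCODE M21, promoters from RefSeq, and figures from matplotlib 3.10.9 in Python 3.11.15.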

Additional observations from a re-analysis of the deposited data

Results flagged for a closer look

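Of 36 groups of 4 libraries (6 genes in 6 groups), 3 held a library whose gap to its nearest neighbour was above the 95% critical value of Dixon's ratio of gap to range; chance alone marks about 1 group in 20. Slco1c1 was at 60.0 TPM in control cerebellum replicate 15, where the other controls were at 57.1 to 57.6 TPM. Slco1c1 was at 72.1 TPM in LLC hippocampus replicate 2, where the others were at 53.6 to 56.2 TPM; that library also had the highest Ttr of its group, and the part of this in the value was not tested. Hr was at 17.04 TPM in control neocortex replicate 14, where the others were at 15.5 to 15.7 TPM.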

How the results depend on the processing

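Of 653 recomputed values for the 6 genes, 594 kept direction and side of the threshold, 21 lost the call, 10 gained it and 28 changed sign. With no filter on low genes, the genes called were 577 in neocortex (1237 in the reported fit), 71 in cerebellum (366), 220 in hippocampus (529), 1088 for the mean of regions (1950), 49 for the LLC effect of cerebellum minus neocortex (91) and 2 for that of hippocampus minus neocortex (0); 1 of the 6 genes was called in neocortex and 1 in the mean of regions, with Dio2 the one that stayed. Without the filter more genes are tested. With median-ratio scaling 742 genes were called in cerebellum, 435 upward (180 of 366 in the reported fit), and 1 of the 6 genes, Hr; in neocortex 707 of 1282 calls were upward (809 of 1237 as reported), and between control regions 5887 of 11854 calls were upward for cerebellum against neocortex (8883 of 12523 as reported), 4424 of 8972 for hippocampus against neocortex (5961 of 9096) and 5851 of 11762 for hippocampus against cerebellum (4052 of 12288). All 24 libraries in 1 fit gave 761 genes in neocortex and 2957 in cerebellum; the cause was not tested.

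The labels do not say that a number marks a shared animal or batch, so the reported fits used no replicate block. Besides the number in the title, the labels give a description number that LLC and control libraries share within a region. Correlations of deviations from group means ran from -0.256 to 0.470 between LLC and control libraries of the same description number (5 of 12 above 0.1). For libraries of the same title number they ran from -0.0956 to 0.625 across regions (16 of 24). A library correlated best with its own number in 16 of 16 cases for cerebellum and neocortex, 14 of 16 for hippocampus and cerebellum and 6 of 16 for hippocampus and neocortex, a hint from the data and not from the design. With a block by description number 641 genes were called in neocortex, 724 in cerebellum and 179 in hippocampus. In that neocortical fit 1 of the 6 genes was called, since Thra was at a limma adjusted p of 0.0552. With a block by title number 204 genes were called for cerebellum minus neocortex and 45 for hippocampus minus cerebellum.

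Without 1 replicate the genes called ranged from 187 to 3834 in neocortex, 6 to 1570 in cerebellum, 57 to 1667 in hippocampus, 379 to 4331 for the mean of regions, 4 to 331 for cerebellum minus neocortex, 0 to 1 for hippocampus minus neocortex and 1 to 255 for hippocampus minus cerebellum. Of the 6 genes 0 to 2 were called in neocortex, 0 to 2 in cerebellum, 0 to 2 in hippocampus, 1 to 3 in the mean of regions and 0 to 1 for cerebellum minus neocortex.

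Small differences changed sign. On the log2 scale, Thrb hippocampus minus cerebellum was 0.0024 with a pseudocount of 0.1, and with median-ratio scaling the LLC effect was 0.048 for Slco1c1 cerebellum minus neocortex and -0.029 for Thra hippocampus minus cerebellum, and the control difference was 0.17 for Slco1c1 hippocampus minus cerebellum. Without 1 replicate the ranges that crossed 0 were -0.047 to 0.25 for Dio3 in neocortex, -0.018 to 0.22 for Hr in hippocampus and -0.068 to 0.12 for Hr hippocampus minus neocortex. For Slco1c1 they were -0.016 to 0.065 in neocortex, -0.026 to 0.075 in cerebellum, -0.021 to 0.15 in hippocampus, -0.0033 to 0.074 for the mean of regions, -0.047 to 0.036 for cerebellum minus neocortex, -0.018 to 0.15 for hippocampus minus cerebellum and -0.034 to 0.12 for hippocampus minus neocortex. For Thra hippocampus minus cerebellum the range was -0.037 to 0.078. For Thrb it was -0.040 to 0.0071 in neocortex, -0.16 to 0.0087 in hippocampus, -0.068 to 0.072 for hippocampus minus cerebellum and -0.14 to 0.015 for hippocampus minus neocortex. TPM hides the depth, so no counting error could be given.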

Other observations

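Among the control libraries, Crym and Rxrg, picked after their values were seen, differed widely between regions, while the related Rxrb was at means of 46.9, 49.9 and 46.4 TPM in neocortex, cerebellum and hippocampus. Crym, the cytosolic protein that binds triiodothyronine, was at 200 ± 18.2 TPM in hippocampus, 52.7 ± 3.91 TPM in neocortex and 0.0926 ± 0.0988 TPM in cerebellum (SD, n = 4 each). Hippocampus minus neocortex was 1.90 ± 0.08 on the log2(TPM + 1) scale. Rxrg, a retinoid X receptor, was at 30.6 ± 2.17 TPM in neocortex, 6.07 ± 0.889 TPM in hippocampus and 0.713 ± 0.306 TPM in cerebellum. Hippocampus minus neocortex was -2.17 ± 0.12. No p is given for Crym and Rxrg because they were picked by these same values. Of all genes, 61.5% passed for control hippocampus against control neocortex.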
